A study of Homo sapiens with 12 samples.

Results

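The effect of adding MLN8237 to cells already exposed to chaetocin was read from 6 RNA sequencing libraries of PANC-1, an established human line from a pancreatic carcinoma: the 3 combination libraries against the 3 chaetocin libraries, across all genes. These are 6 of the 12 libraries of the series. Treatment lasted 24 h in every group: DMSO as vehicle, chaetocin at 30 nM, MLN8237 at 90 nM, or chaetocin at 30 nM together with MLN8237 at 90 nM, each in 3 libraries. The combination labels write the Aurora inhibitor as MLN3237, which was read as MLN8237. Separate cultures are not stated in the labels, and the p-values therefore reflect only differences among these libraries, possibly technical ones. Of 57773 genes in the table, 22831 passed the expression filter and were tested. Combination replicate 2 lies near the chaetocin libraries, so the comparison was fitted with it and without it. With all libraries every edgeR adjusted p was 0.129 or higher.

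MLN8237, also called alisertib, inhibits Aurora A, the kinase that drives centrosome maturation and spindle assembly and that is switched on by its partners TPX2 and BORA. Chaetocin is a fungal metabolite known to inhibit the histone H3K9 methyltransferase SUV39H1 and thioredoxin reductase. Cells pass from G1 into S phase when E2F transcription factors raise the genes of the replication machinery, such as the MCM helicase, and they pass through mitosis with a different gene set. Immediate early genes such as FOS and EGR1 code for transcription factors that signals from growth factors or stress can switch on without new protein synthesis.

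The 6 libraries held 55033617 to 63747510 gene counts. In the leading principal component of all 12 libraries the chaetocin libraries lay between 37.3 and 46.4, combination replicates 1 and 3 at 95.3 and 89.0, and combination replicate 2 at 50.8. Replicate pairs within either group differed by more than counting noise (chi-square per gene from 7.932 to 40.76). PANC-1 keeps some epithelial keratins. KRT8 stood at 1121 to 1295 CPM with chaetocin and 991.7 to 1167 with both compounds. CPM is a gene's count as a share of the TMM-scaled library total. KRT18 was also high, at 886.9 to 914 and 680.7 to 811.8. Other epithelial genes differed widely in level. KRT19 stood at 175.5 to 217.3 and 153.4 to 206.8, and the claudin gene CLDN4 at 97.55 to 123.1 and 100.9 to 135.4. EPCAM stood at 15.41 to 17.58 and 14.02 to 16.44. KRT7 was low, at 4.702 to 6.63 and 4.422 to 5.269, as was the cadherin gene CDH1, at 1.506 to 4.997 and 1.353 to 4.666. The mesenchymal gene VIM exceeded KRT8 in all 6 libraries, at 3302 to 3762 and 2372 to 3344. Defining markers of other cell types were mostly near 0, with exceptions. INS and GCG, the islet hormone genes, and PNLIP, of acinar cells, were at 0 in all 6 libraries. The 10 fibroblast and stellate markers summed to 62.1 to 70.8 CPM with chaetocin and 40.0 to 55.1 with both, mostly from the collagen gene COL1A1, while DCN and LUM stayed at or under 0.0347 CPM. COL1A1 was itself called lower by edgeR without combination replicate 2 (log2 fold change -0.70, adjusted p = 0.0289). With all libraries it stood at -0.56 (edgeR adjusted p = 0.203, DESeq2 adjusted p = 0.0245). The 13 immune markers summed to 168.6 to 235.6 CPM and 170.1 to 237.9, of which CD68, a lysosomal protein gene used as a macrophage marker, made up 163.3 to 229.1 over the 6 libraries. The 11 endothelial markers summed to 37.2 to 40.3 and 37.1 to 40.7, mostly from the receptor gene ENG at 25.6 to 30.0. Both lists had positive medians over their members. The immune median log2 fold change was 0.29 with all libraries and 0.62 without combination replicate 2 (9 of 9 tested positive). The endothelial median was 0.18 and 0.40 (6 of 7). Without that library 0 genes of either list were called, beside 2.43% of all genes. With all libraries edgeR called 0 of 22831 genes. By library the immune list stood at 0.60, -0.19 and 0.71 and the endothelial list at 0.35, -0.13 and 0.42 from the chaetocin mean in combination replicates 1, 2 and 3. The pan-leukocyte gene PTPRC was at 0.289 to 0.469 CPM with chaetocin and 0.402 to 0.902 with both. The 13 acinar markers summed to 0.624 to 1.04 and 0.748 to 1.15, and the 13 endocrine markers to 7.38 to 9.77 and 10.1 to 10.4. The part of those markers in the results was not tested.

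**Figure D1:**
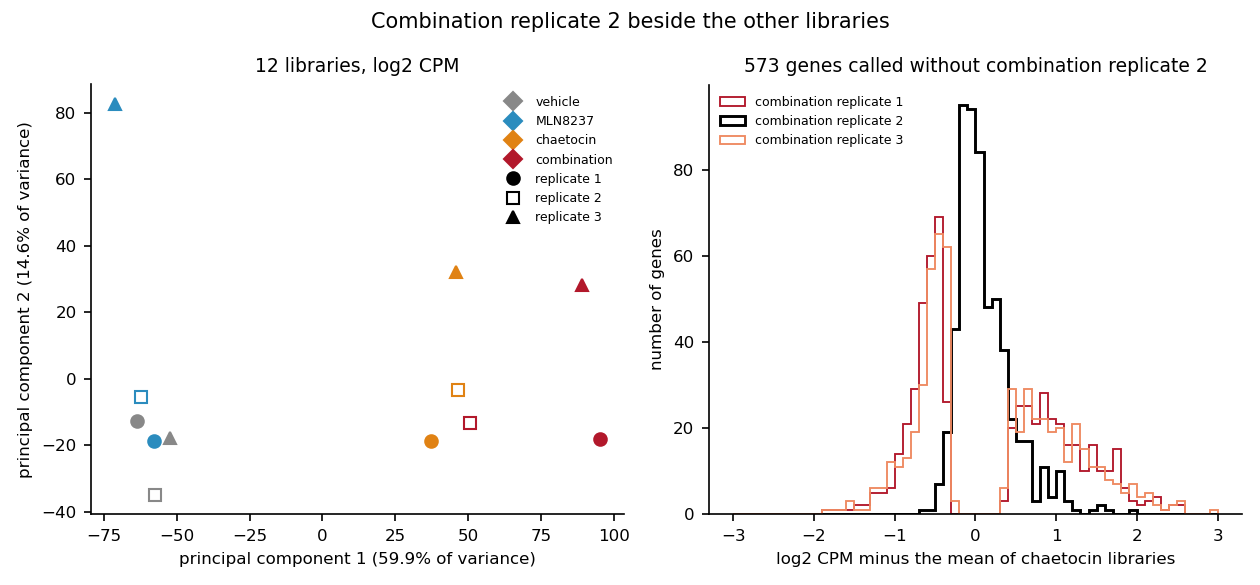
Left, the 12 libraries on principal components 1 and 2 of log2 CPM, coloured by group, with open squares for replicate 2. Right, for the 573 genes called without combination replicate 2, the number of genes (vertical axis) at each difference in log2 CPM from the mean of the chaetocin libraries, with 1 outline per combination library. Replicates 1 and 3 fall into lobes away from 0, which the choice of the genes fixes, and replicate 2 lies mostly around 0.

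With all libraries, no gene passed the test (edgeR quasi-likelihood F test, adjusted p under 0.05, 0% of 22831 genes called). At an unadjusted p under 0.05 there were 2677 genes, or 11.7% of genes, of which 1582 were higher (6.93%) and 1095 lower (4.8%) with both compounds. In 18.7% of genes the 3 libraries of either group did not overlap those of the other. DESeq2 called 299 genes (1.31%), 197 higher and 102 lower, and limma-voom called 1 (0.00438%). With combination replicate 2 left out, edgeR called 573 of 23573 genes (2.43%), 281 higher (1.19%) and 292 lower (1.24%), of which 145 and 29 differed by at least 2-fold. DESeq2 then called 1702 (7.22%). Replicate 2 was left out for its place in these same expression data, so calls made without it lean towards a difference. Those calls also rest on few libraries. With 1 more library left out, edgeR called 0 genes when it was combination replicate 1 and 1 gene when it was combination replicate 3. It called 0 genes without chaetocin replicate 1 and 2 without chaetocin replicate 2. Leaving out chaetocin replicate 3 gave 341, vehicle replicate 1, 2 or 3 gave 302, 225 or 346, MLN8237 replicate 2 gave 348 and MLN8237 replicate 3 gave 2117. Below, "called" or "rose" and "fell" refer to edgeR without combination replicate 2, unless a sentence names another fit.

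In the 573 genes, combination replicate 2 stood at a median of 0.24 of the way from chaetocin to combination replicates 1 and 3 (interquartile range 0.06 to 0.40). It lay on their side of the chaetocin mean in 474 of the 573 (82.7%). The chaetocin libraries serve in both the choice of genes and this measure. When each combination library was left out in turn and the genes at an unadjusted p under 0.05 were taken, the library left out lay at a median of 1.23 for replicate 1 (1246 genes), 0.24 for replicate 2 (4338 genes) and 0.78 for replicate 3 (2016 genes). Among the 281 genes called higher, 1 lacked a value in the fit of all libraries. In the other 280, the median log2 fold change was 1.01 without replicate 2 and 0.81 with all libraries. In the 292 called lower the medians were -0.57 and -0.39.

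Of the gene lists examined, G1/S and DNA replication held the most genes that fell. All 48 members passed the expression filter. Without combination replicate 2, 12 fell and 0 rose, beside 1.24% and 1.19% of all genes. The median log2 fold change was -0.28, with 43 members negative, beside 0.01 over all genes. With all libraries the median was -0.21, and 26 of 48 lay lower in every combination library than in any chaetocin library, a pattern found in 9.18% of all genes. At an unadjusted p under 0.05, 24 members were lower and 1, the kinase activator DBF4, was higher, beside 4.8% and 6.93% of all genes. DESeq2 called 11 of the 48 lower and 0 higher with all libraries, beside 102 lower and 197 higher of all 22831 genes. By library, the list's median difference from the chaetocin mean was -0.28, -0.12 and -0.27 in combination replicates 1, 2 and 3, so replicate 2 shared the direction at a smaller size. In bulk RNA, fewer cells in S phase and less of these transcripts per cell cannot be told apart.

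Of the 12 that fell, 11 are named here, and they cover successive steps of replication: the activator E2F2, the helicase subunits MCM3, MCM4, MCM5 and MCM6, the helicase cofactors CDC45 and GINS2, the polymerase subunits PRIM1 and POLE2, the ligase LIG1, and UHRF1, which couples DNA methylation to replication. The upstream sequences of MCM6, MCM3 and E2F2 are shown because these genes fell together and hold an E2F motif, TTTGGCGC or TTTCCCGC, on either strand within 250 bases before the RefSeq start (build GRCh38.p14). Capitals mark the motif, each sequence runs 5′ to 3′ on the gene's strand, the genes were picked after the search, and the printed matches do not overlap each other.
MCM6 (chr2:135876444-135876693, minus strand): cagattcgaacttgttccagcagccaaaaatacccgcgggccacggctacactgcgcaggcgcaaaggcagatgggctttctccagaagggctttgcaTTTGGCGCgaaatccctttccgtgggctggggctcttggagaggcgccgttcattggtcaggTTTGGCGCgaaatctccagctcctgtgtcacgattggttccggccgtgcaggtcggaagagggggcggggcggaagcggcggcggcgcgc
MCM3 (chr6:52284743-52284992, minus strand): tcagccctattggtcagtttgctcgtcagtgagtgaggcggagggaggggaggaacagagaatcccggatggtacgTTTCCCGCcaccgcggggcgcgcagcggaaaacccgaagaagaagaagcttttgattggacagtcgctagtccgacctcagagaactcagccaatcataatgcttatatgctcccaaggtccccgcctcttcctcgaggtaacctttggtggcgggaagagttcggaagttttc
E2F2 (chr1:23531234-23531483, minus strand): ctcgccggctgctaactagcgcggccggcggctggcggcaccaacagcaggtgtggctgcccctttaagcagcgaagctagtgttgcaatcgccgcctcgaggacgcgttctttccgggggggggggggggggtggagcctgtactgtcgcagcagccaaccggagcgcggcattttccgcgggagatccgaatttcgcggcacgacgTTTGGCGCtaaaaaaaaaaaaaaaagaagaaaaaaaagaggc
Of the 12 genes that fell, 9 had an entry in the promoter table and 6 of these held a motif, beside 17 of the 42 matched members of the whole list and 2.36% of 27305 genes. A match is a description of the letters and not a binding site.

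MCM6 (ENSG00000076003, chromosome 2, 136597196 to 136633996, hg19), a subunit of the replicative helicase, stood at 132.1, 118.7 and 113.9 CPM in chaetocin replicates 1, 2 and 3 and at 79.3, 102.0 and 76.5 in the combination. The groups did not overlap, and combination replicate 2 lay between them. The log2 fold change was -0.50 ± 0.106 with all libraries (SE, edgeR adjusted p = 0.203) and -0.65 ± 0.0875 without replicate 2 (edgeR adjusted p = 0.0104, range over alternatives 8.08e-11 to 0.0994). In vehicle and MLN8237 alone its means were 140.4 and 124.1 CPM.

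E2F2 (ENSG00000007968, chromosome 1, 23832922 to 23857712), an activator of S-phase genes, had 24.0, 24.0 and 19.9 CPM with chaetocin and 12.1, 17.8 and 9.43 with both. All 3 combination values were below all 3 chaetocin values. It fell by 1.08 ± 0.14 on the log2 scale without replicate 2 (edgeR adjusted p = 0.0104, range 5.08e-10 to 0.09), beside -0.79 ± 0.181 with all libraries (adjusted p = 0.203). E2F1, its close relative, had 138.1, 141.5 and 139.0 CPM with chaetocin and 97.1, 122.0 and 100.8 with both, and narrowly missed the threshold without replicate 2 (edgeR adjusted p = 0.0507, range 0.00191 to 0.275).

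MCM5 held 124.1, 124.0 and 125.2 CPM with chaetocin and 79.7, 102.5 and 82.3 with both, and CDC45, which joins the MCM ring to form the active helicase, held 33.4, 31.0 and 32.8 and then 20.7, 27 and 22.2. Both separated the groups without overlap. MCM5 fell by 0.63 and CDC45 by 0.60 on the log2 scale without replicate 2 (edgeR adjusted p = 0.0133 and 0.0161), beside log2 fold changes of -0.50 and -0.48 with all libraries. UNG, the uracil glycosylase that acts at the replication fork, belongs to no list here and was named after its values were seen: it had 126.5, 122.8 and 113.0 CPM with chaetocin and 76.1, 106.7 and 77.3 with both (log2 fold change -0.48 with all libraries and -0.66 without replicate 2, edgeR adjusted p = 0.204 and 0.0106). The mismatch repair gene MSH6 was the 1 of 32 DNA repair genes to fall, beside 1.24% of all genes. It went from 197.1, 185.4 and 179.2 CPM to 134.6, 161.9 and 134.6 (log2 fold change -0.38 and -0.48, edgeR adjusted p = 0.203 and 0.0189). MSH6, PRIM1, LIG1, GINS2, UHRF1 and POLE2 overlap other genes in the table, and whether strand was used in counting is not stated.

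**Figure D2:**
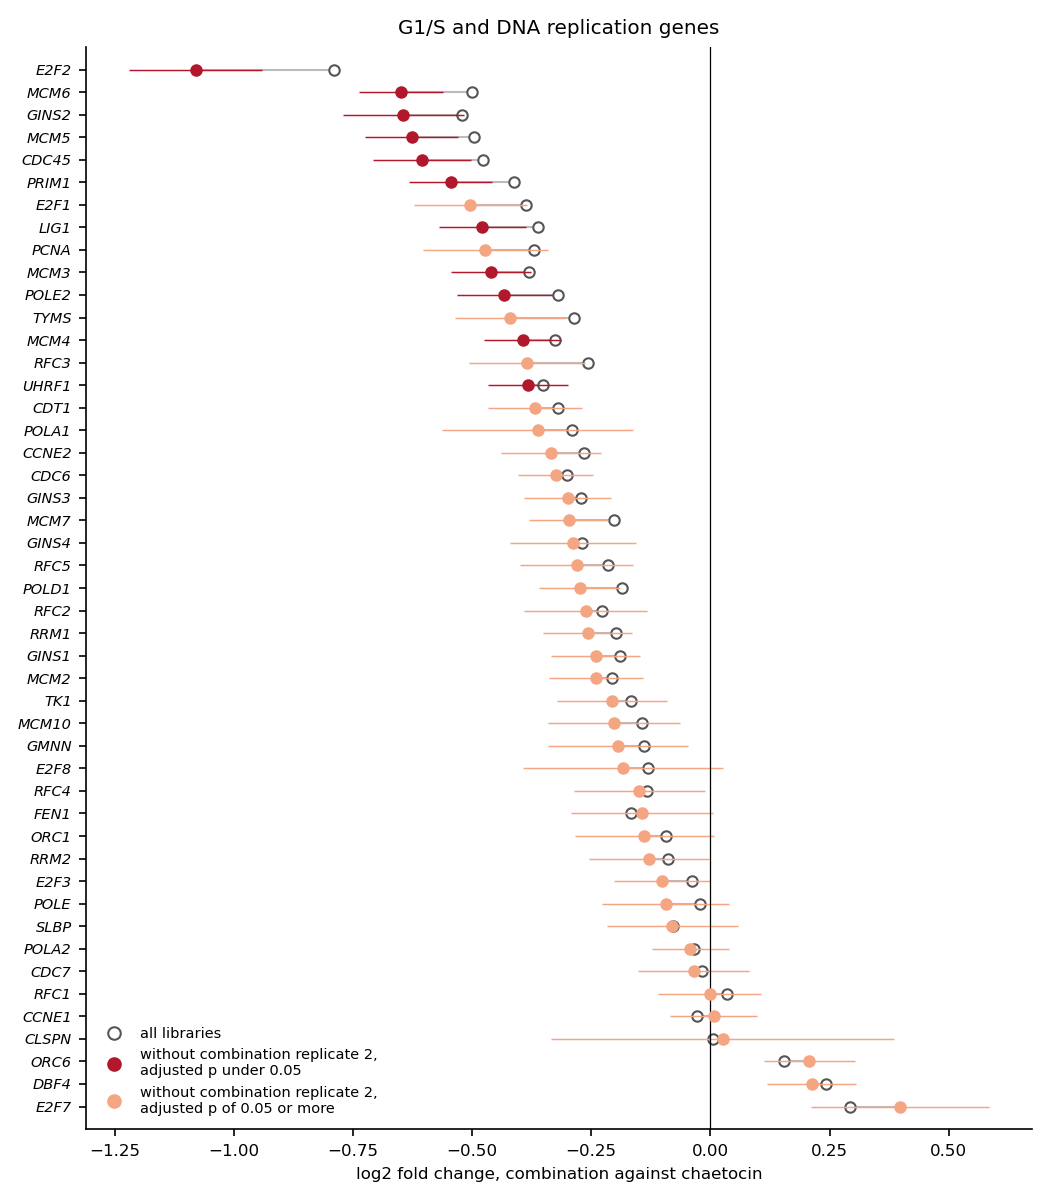
G1/S and DNA replication genes, 47 of the 48, with the log2 fold change of combination against chaetocin on the horizontal axis. Open circles are the fit of all libraries, filled circles with SE bars the fit without combination replicate 2, in dark red for the 11 genes shown that were called. Of the 47, 42 lie below 0 without replicate 2.

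Immediate early genes went the other way. Of 29 members tested without combination replicate 2, 8 rose and 1 fell, beside 1.19% and 1.24% of all genes. The median log2 fold change was 0.41, beside 0.01 over all genes. With all libraries 28 were tested, the median was 0.24, and 10 lay above chaetocin in every library (9.53% of all genes did so). DESeq2 called 6 higher and 1 lower with all libraries, beside 197 higher and 102 lower of all 22831 genes. The list's median difference from the chaetocin mean was 0.34, 0.02 and 0.49 in combination replicates 1, 2 and 3, so over the list replicate 2 stood at the chaetocin level. The members that rose were EGR1, FOS, FOSB and JUNB, the nuclear receptors NR4A1 and NR4A2, the stress factor ATF3, and ZFP36, which speeds decay of inflammatory mRNAs.

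EGR1 (ENSG00000120738, chromosome 5, 137801179 to 137805004), a zinc finger transcription factor, stood at 11.8, 14.3 and 12 CPM with chaetocin and at 42.8, 24.1 and 34.1 with both, above chaetocin in all 3 combination libraries. Its log2 fold change was 1.41 ± 0.214 with all libraries (edgeR adjusted p = 0.165, DESeq2 adjusted p = 2.24e-06) and 1.59 ± 0.198 without replicate 2 (edgeR adjusted p = 0.0104, range 1.12e-10 to 0.0994). Its upstream sequence is shown because it was the 1 of 7 matched called members with a CArG box, the motif bound by serum response factor, on either strand in these 250 bases. The box, searched by its name's usual consensus, occurs in 3 of 21 matched list members and in 1.44% of 27305 genes. Capitals mark the 2 boxes.
EGR1 (chr5:138465229-138465478, plus strand, GRCh38.p14, RefSeq): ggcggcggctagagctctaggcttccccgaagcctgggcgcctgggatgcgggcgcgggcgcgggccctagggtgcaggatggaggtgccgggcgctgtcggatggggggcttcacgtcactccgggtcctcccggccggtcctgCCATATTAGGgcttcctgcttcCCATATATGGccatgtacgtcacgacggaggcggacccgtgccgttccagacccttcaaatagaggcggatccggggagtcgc

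FOS, the partner of JUN in the AP-1 factor, had 1.56, 1.81 and 2.82 CPM with chaetocin and 6.08, 4.23 and 6.51 with both. FOSB, its relative, had 6.84, 9.14 and 8.17 and then 21.6, 12 and 17.6. Neither gene's groups overlapped, with combination replicate 2 the lowest of its group in both. FOS rose by 1.60 ± 0.283 and FOSB by 1.28 ± 0.179 on the log2 scale without replicate 2 (edgeR adjusted p = 0.0191 and 0.0117), beside log2 fold changes of 1.44 and 1.09 with all libraries, and both were also called by DESeq2 with all libraries (adjusted p = 4e-04 and 0.000633). FOSB overlaps ERCC1. NR4A1 had 5.03, 6.52 and 6.92 CPM with chaetocin and 11.7, 7.13 and 14.2 with both. ZFP36 had 187.8, 235.0 and 231.3 and then 333.7, 246.6 and 349.6. In NR4A1 and ZFP36 combination replicate 2 stood just above the highest chaetocin library.

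MYC, which the list holds as an early growth response gene, was the member that fell, from 100.7, 102.8 and 105.1 CPM to 69.5, 85.3 and 79.3. All 3 combination libraries lay below chaetocin, and the log2 fold change was -0.40 ± 0.0877 with all libraries (edgeR adjusted p = 0.203) and -0.48 ± 0.0897 without replicate 2 (edgeR adjusted p = 0.0243, range 1.29e-05 to 0.219). In vehicle and MLN8237 alone its means were 88.8 and 89.2 CPM.

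**Figure D3:**
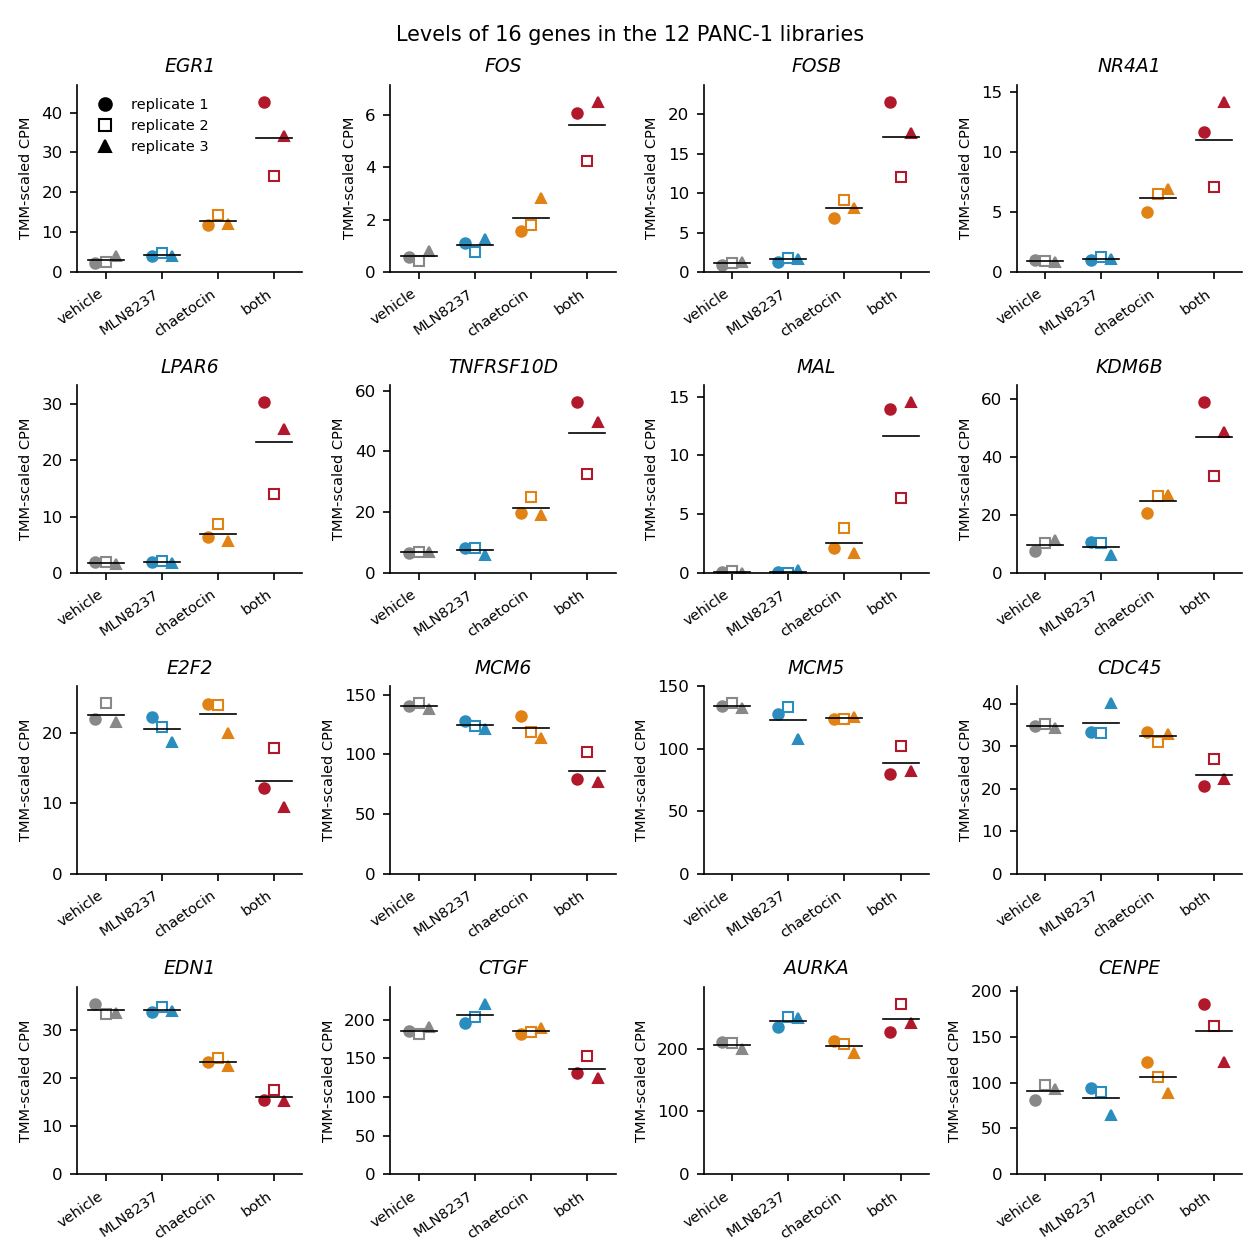
TMM-scaled CPM of 16 genes in the 12 libraries, by group on the horizontal axis. Each point is a library, open squares are replicate 2 and bars are group means of 3. EGR1 stands at 24.1 to 42.8 CPM with both compounds and 11.8 to 14.3 with chaetocin, while MCM6 stands at 76.5 to 102.0 and 113.9 to 132.1.

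Genes of mitosis, where Aurora A acts, were compared next. Of 47 G2/M and cytokinesis genes, 0 were called without replicate 2, beside 1.19% higher and 1.24% lower of all genes. The median log2 fold change in that fit was 0.08 beside 0.01 over all genes. With all libraries, where edgeR called 0 of 22831 genes, the list's median was 0.12. In 14 of the 47 every combination library lay above every chaetocin library and in 4 below, beside 9.53% and 9.18% of all genes. At an unadjusted p under 0.05, 14 were then higher and 2 lower, beside 6.93% and 4.8% of all genes. DESeq2 with all libraries called 2 higher, CDCA2 and KIF18A, and 0 lower, beside 197 and 102 of all 22831 genes. By library the list stood 0.11, 0.19 and 0.08 above the chaetocin mean, and here replicate 2 was the highest of the combination. CDCA2, which recruits phosphatase 1 to chromatin, had 33.9, 32.1 and 30.6 CPM with chaetocin and 47.0, 40.3 and 39.7 with both. KIF18A, the kinesin that holds chromosomes at the spindle equator, had 55.6, 53.3 and 46.9 and then 74.0, 71.2 and 65.4. In both genes the groups did not overlap, and neither passed edgeR in either fit (adjusted p of CDCA2 0.203 and 0.0581 and of KIF18A 0.117 without replicate 2).

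AURKA, the gene of the kinase that MLN8237 inhibits (ENSG00000087586, chromosome 20, 54944445 to 54967393), had 212.6, 207.5 and 193.1 CPM with chaetocin and 226.8, 271.3 and 241.5 with both. The groups did not overlap, with replicate 2 the highest library. The log2 fold change of 0.27 ± 0.0858 did not pass edgeR (adjusted p = 0.263, and 0.253 without replicate 2). In vehicle and MLN8237 alone its means were 206.1 and 244.7 CPM, a log2 fold change of 0.25. Of the 18 Aurora kinases and partners 0 were called without replicate 2 (median 0.08, 14 positive), beside 1.19% higher and 1.24% lower of all genes. With all libraries, where edgeR called 0 of 22831 genes, the median was 0.07. Then 6 lay above chaetocin in every combination library and 0 below, beside 9.53% and 9.18% of all genes. At an unadjusted p under 0.05, 5 were higher and 1 lower, beside 6.93% and 4.8% of all genes. DESeq2 with all libraries called 1, BORA, the activator of Aurora A and PLK1. BORA had 28.2, 27.6 and 26.3 CPM with chaetocin and 33.0, 35.8 and 36.2 with both. TPX2, the spindle protein that activates Aurora A, had 822.1, 777.4 and 725.5 and then 896.4, 931.1 and 860.4 CPM. AURKB, of the chromosomal passenger complex, had 90.3, 96.8 and 105.1 and then 78.1, 85.1 and 93.1, so its groups overlapped.

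Of 33 kinetochore and spindle checkpoint genes 1 rose and 1 fell without replicate 2, beside 1.19% and 1.24% of all genes. The medians were 0.01 with all libraries and -0.02 without replicate 2 (19 of 33 negative). SGOL1, which guards cohesin at centromeres, rose from 33.0, 33.0 and 32.1 CPM to 43.9, 38.1 and 43.2 (log2 fold change 0.35 with all libraries and 0.41 ± 0.0938 without replicate 2, edgeR adjusted p = 0.047, range 0.000327 to 0.26), and it overlaps its antisense gene SGOL1-AS1. NSL1, a subunit of the outer kinetochore complex, fell. The kinesin CENPE spread within each group, at 122.2, 106.4 and 88.4 CPM with chaetocin and 185.9, 161.2 and 122.9 with both, and did not pass (edgeR adjusted p = 0.247 with all libraries and 0.182 without replicate 2). Among 28 tubulin and centrosome genes (median 0.03 and -0.01) 1, HAUS1 of the augmin complex, fell without replicate 2 (28.1, 27.6 and 26.9 CPM, then 20.1, 24.4 and 21.0). CCNB1, the mitotic cyclin, was at 479.8, 477.0 and 505.1 and then 471.9, 562.7 and 566.9 CPM, with overlapping groups.

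Histone genes had the largest positive median of the cell cycle lists. Of 65 tested without replicate 2, 4 rose and 0 fell, beside 1.19% and 1.24% of all genes. The median log2 fold change was 0.47 in both fits. By library the difference was 0.48, 0.08 and 0.58, so replicate 2 stood near chaetocin. HIST1H3B had 1.28, 1.78 and 1.4 CPM with chaetocin and 3.93, 2.04 and 4.45 with both (log2 fold change 1.22 with all libraries and 1.48 ± 0.22 without replicate 2, edgeR adjusted p = 0.0133, range 4.47e-07 to 0.106). The other 3 were HIST1H3J, HIST1H2AG and HIST1H2AM. These replication-dependent histone mRNAs mostly lack a poly(A) tail, and HIST1H3J overlaps HIST1H2AM. Members are near-identical copies, and how the counting treated reads that match several of them is not stated. The linker histone gene H1F0, whose mRNA is polyadenylated, went the other way, at 77.9, 78.5 and 78.6 CPM with chaetocin and 58.7, 66.2 and 62.7 with both, and just missed the threshold without replicate 2 (edgeR adjusted p = 0.0519). It was called lower by DESeq2 with all libraries.

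**Figure D4:**
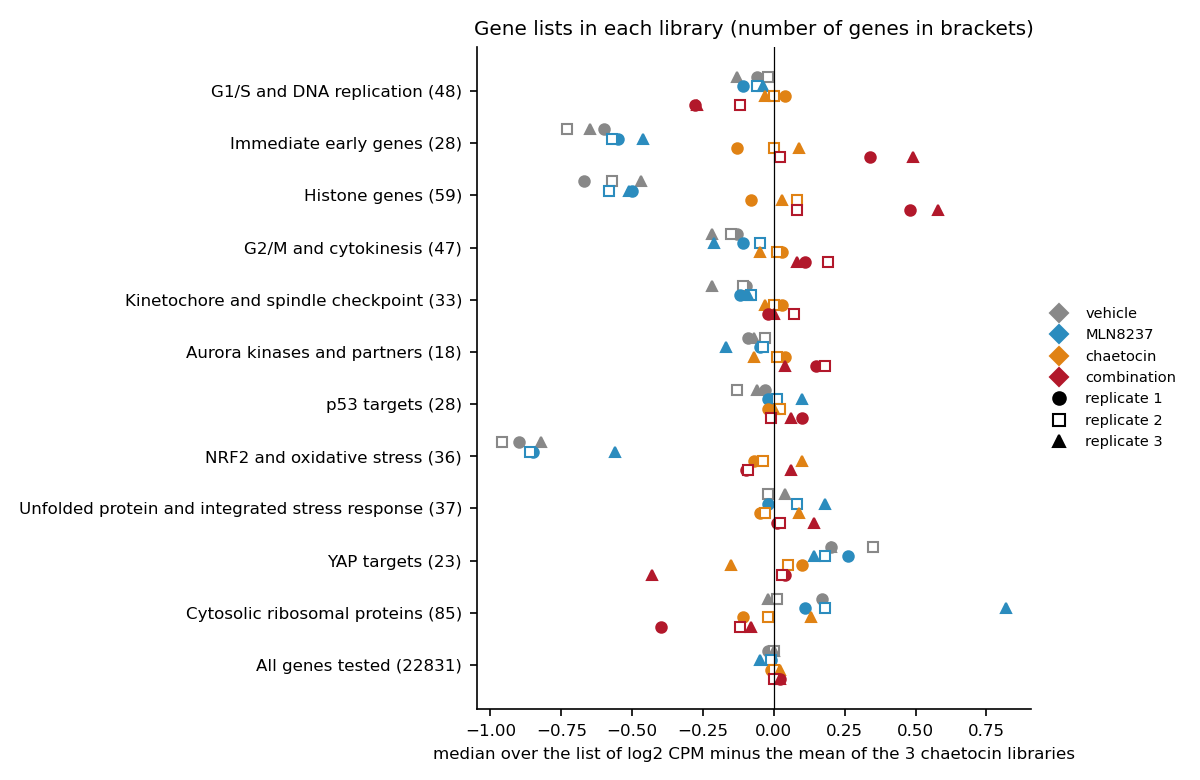
Median over 12 gene sets of the difference in log2 CPM from the mean of the 3 chaetocin libraries (horizontal axis), 1 point per library, coloured by group, with open squares for replicate 2. G1/S genes stand at -0.28, -0.12 and -0.27 in the combination and immediate early genes at 0.34, 0.02 and 0.49, and MLN8237 replicate 3 stands apart at 0.82 in ribosomal protein genes.

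Transcripts of chaetocin's known targets, and the marker gene of the oxidative stress response, did not pass. SUV39H1, the H3K9 methyltransferase, had 39.5, 38.6 and 39.2 CPM with chaetocin and 32.6, 43.0 and 36.3 with both (edgeR adjusted p = 0.289 without replicate 2). TXNRD1, thioredoxin reductase, had 1907, 1782 and 1661 and then 1644, 1774 and 1431, and HMOX1, haem oxygenase of the NRF2 response, 693.6, 762.3 and 1048 and then 701.6, 614.1 and 833.2. Groups overlapped in all 3 genes. EHMT2, another H3K9 methyltransferase gene, had 53.8, 50.7 and 47.9 and then 40.6, 45.2 and 39.9 CPM, without overlap. It did not pass edgeR (adjusted p = 0.31 with all libraries and 0.122 without replicate 2). DESeq2 called it lower without replicate 2 (adjusted p = 0.0461). SUV39H2 was called in 0 of 21 alternatives of the fit of all libraries. Of 37 NRF2 and oxidative stress genes 1 rose and 1 fell without replicate 2, beside 1.19% and 1.24% of all genes. ABCC2, a conjugate export pump, went from 13, 14.9 and 13.8 CPM to 28.4, 16.8 and 24.3. TKT, of the pentose phosphate pathway, went from 295.8, 298.5 and 299.3 to 209.9, 280.5 and 234.1. The list's median was -0.08 with all libraries and -0.07 without replicate 2.

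In the unfolded protein and integrated stress response list 3 of 37 genes rose without replicate 2 and 0 fell, beside 1.19% and 1.24% of all genes. The list's median was 0.01 (0.03 with all libraries). The genes that rose were ATF3, the ER stress sensor EIF2AK3 and the phosphatase subunit PPP1R15A. PPP1R15A, which reverses the translation block of that response, had 51.9, 59.9 and 66.3 CPM with chaetocin and 90.7, 60.0 and 100.8 with both, and replicate 2 lay within the chaetocin range. Of 28 p53 targets 0 were called without replicate 2, beside 1.19% higher and 1.24% lower of all genes. With all libraries edgeR called 0 of 22831 genes. CDKN1A, the p53-responsive cell cycle inhibitor, had 35.8, 40.8 and 53.6 and then 58.1, 39.8 and 73.9 CPM, with overlapping groups (edgeR adjusted p = 0.0884 without replicate 2).

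Of 23 targets of the Hippo pathway factor YAP, 3 fell and 0 rose without replicate 2, beside 1.24% and 1.19% of all genes. The median was -0.24, beside -0.10 with all libraries. DESeq2 called 3 lower and 0 higher with all libraries, beside 102 lower and 197 higher of all 22831 genes. EDN1, the vasoactive peptide endothelin 1 (ENSG00000078401, chromosome 6, 12290596 to 12297427), had 23.3, 24.2 and 22.5 CPM with chaetocin and 15.4, 17.5 and 15.1 with both. Its spread within groups was small, the groups did not overlap, and its log2 fold change was -0.54 ± 0.0844 with all libraries (edgeR adjusted p = 0.165, DESeq2 adjusted p = 2.24e-06) and -0.62 ± 0.0835 without replicate 2 (edgeR adjusted p = 0.0104, range 1.12e-10 to 0.0997). CTGF had 181.1, 184.1 and 189.6 and then 131.7, 153.6 and 125.3 CPM, and CYR61 418.5, 427.1 and 413.2 and then 277.9, 368.1 and 282.4. Both code for secreted matricellular proteins, and both fell without replicate 2 (log2 fold change -0.53 and -0.59, edgeR adjusted p = 0.0133 and 0.011), beside -0.43 and -0.44 with all libraries. ANKRD1, another target of the list, was higher, at 1.22, 1.19 and 1.56 and then 2.25, 1.80 and 2.70 CPM, and did not pass (edgeR adjusted p = 0.105). The list's median by library was 0.04, 0.03 and -0.43 and lay below chaetocin in combination replicate 3 only.

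The gene with the smallest p-value with all libraries was LPAR6, a receptor for lysophosphatidic acid (ENSG00000139679, chromosome 13, 48963707 to 49018840). It had 6.37, 8.61 and 5.64 CPM with chaetocin and 30.3, 14.1 and 25.6 with both, beside a mean of 1.77 in vehicle and 1.9 with MLN8237 alone. Its log2 fold change was 1.76 ± 0.24 (edgeR adjusted p = 0.129, DESeq2 adjusted p = 3.80e-08) and 2.02 ± 0.175 without replicate 2 (edgeR adjusted p = 0.00316, range 6.47e-21 to 0.09). LPAR6 overlaps RB1, whose counts were 76.0, 64 and 53.8 CPM and then 74.6, 78.1 and 56.1, with a log2 fold change of 0.11.

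Other genes that were higher in all 3 combination libraries followed. TNFRSF10D, a decoy receptor for the death ligand TRAIL, had 19.8, 25 and 19.2 CPM with chaetocin and 56.2, 32.6 and 49.7 with both (log2 fold change 1.11 ± 0.183 with all libraries and 1.30 ± 0.148 without replicate 2, edgeR adjusted p = 0.0084, range 1.77e-12 to 0.095). ATF7IP2, a relative of the cofactor of the H3K9 methyltransferase SETDB1, and SMTN, a smooth muscle cytoskeletal gene, differed from most genes here in that replicate 2 moved with the other libraries. ATF7IP2 had 17.1, 17.5 and 15.3 CPM and then 22.7, 22.9 and 23.0, and SMTN 60.6, 61.5 and 62.5 and then 84.5, 81.4 and 78.2. They reached edgeR adjusted p-values of 0.182 with all libraries and 0.0311 and 0.0335 without replicate 2, and DESeq2 called both with all libraries. KDM6B, the H3K27 demethylase, had 20.8, 26.6 and 26.8 and then 59.0, 33.6 and 48.7 CPM (log2 fold change 0.93 ± 0.228 with all libraries and 1.12 ± 0.223 without replicate 2, edgeR adjusted p = 0.204 and 0.0295).

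Of the 6 largest increases without replicate 2, MAL, MUC5AC and IGFN1 had vehicle means of 0.0504, 0.203 and 0.0259 CPM. MAL, a raft protein of apical membranes, had 2.10, 3.79 and 1.66 CPM with chaetocin and 14.0, 6.36 and 14.5 with both, beside 0.0854 with MLN8237 alone (log2 fold change 2.20 with all libraries and 2.49 ± 0.461 without replicate 2, edgeR adjusted p = 0.0227, range 0.00191 to 0.188). MUC5AC, the gel-forming gastric mucin, varied widely, at 4.86, 7.28 and 14.3 and then 27, 10.5 and 45.0 CPM, so its groups overlapped through replicate 2. ZNF554 had 3.56, 3.93 and 3.20 and then 11.2, 5.63 and 12.4. IGFN1 and the non-coding CTD-2561B21.5 completed the 6 largest, at 2.86 to 4.50 and 2.29 to 3.50 CPM with chaetocin and 3.53 to 12.6 and 5.03 to 12.2 with both.

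The largest decreases without replicate 2 were smaller in size, at -1.53 for the non-coding C20orf166-AS1, -1.265 for the non-coding RP11-2C24.6 and -1.20 for FAM132A. With all libraries these stood at -0.58, -0.85 and -0.85. SLC30A1 and LFNG followed at -1.19 and -1.18, beside -0.55 and -0.67 with all libraries. In LFNG, a Notch-modifying glycosyltransferase, replicate 2 sat among the chaetocin libraries: 12.8, 12.7 and 10.7 CPM with chaetocin and 4.49, 12.1 and 6.20 with both. SLC30A1, the zinc exporter, did the same, at 22.4, 18.2 and 13.3 and then 9.95, 21.0 and 5.81. ZNF629, which overlaps RP11-2C24.6, completed the 6 largest at -1.12. Among genes lower in all 3 combination libraries, GTPBP3, a mitochondrial tRNA-modifying enzyme, had 13.8, 13.9 and 14.4 and then 7.18, 11 and 8.06 CPM (log2 fold change -0.68 with all libraries and -0.89 ± 0.0978 without replicate 2, edgeR adjusted p = 0.0084, range 3.79e-14 to 0.095). SLC29A1, the nucleoside transporter that also carries gemcitabine, had 219.5, 207.2 and 210.6 and then 152.6, 173.4 and 152.2 CPM. LPCAT4, LRFN1 and C6orf132 fell by 0.54, 0.60 and 0.76 on the log2 scale without replicate 2, beside -0.46, -0.51 and -0.64 with all libraries.

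Whether MLN8237 did the same without chaetocin was read from MLN8237 against vehicle, which shares no library with the comparison above. There edgeR called 1 gene of 22831 (0.00438%), the non-coding RP3-375P9.2. Across the 22831 genes the log2 fold changes with all libraries had a Pearson r of -0.06 and a Spearman rho of -0.16 between the comparisons, a description in which genes are not independent. In 16840 genes with a mean of at least 1 CPM in either group of the comparison, they were -0.12 and -0.24. MLN8237 replicate 3 stands apart from the other MLN8237 libraries on principal component 2, at 82.7 beside -18.6 and -5.5, and its part in these values was not tested. Of the 280 genes called higher without replicate 2 that had a value in both, 143 were higher with MLN8237 alone, and of the 292 called lower, 142 were lower, with medians of 0.01 and 0.00. FOS and EGR1 had log2 fold changes of 0.77 and 0.54 with MLN8237 alone, and MCM6 and E2F2 of -0.18 and -0.13, and none passed.

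**Figure D5:**
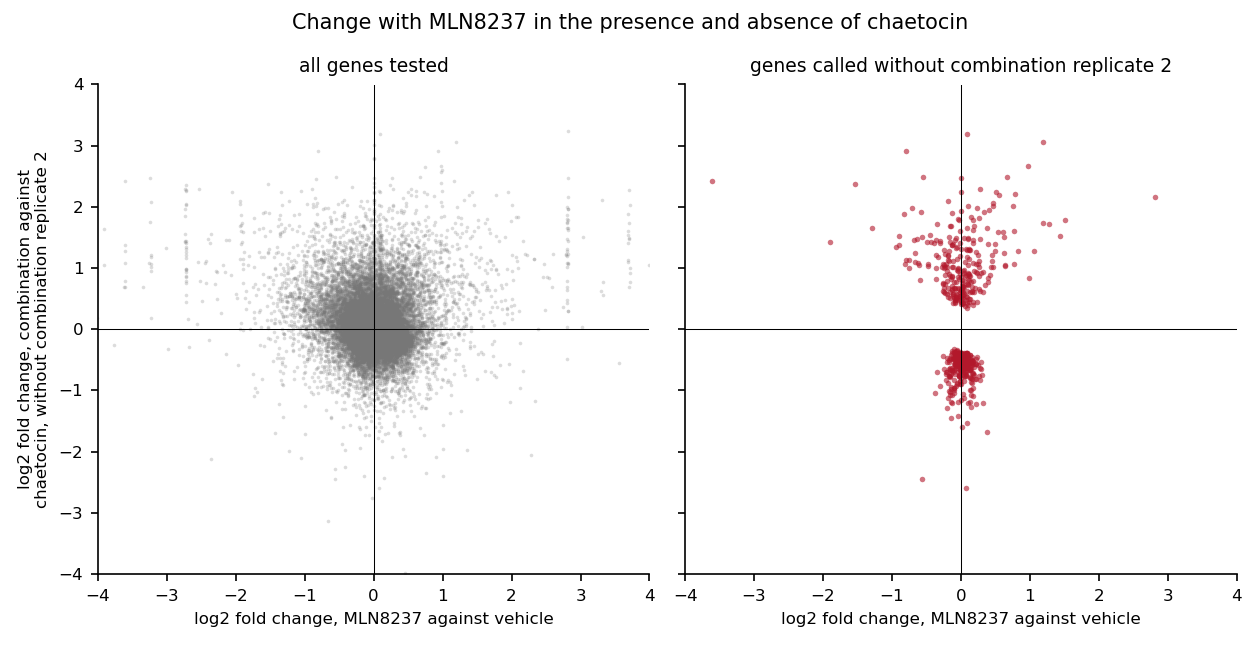
Log2 fold change of combination against chaetocin without combination replicate 2 (vertical axis) against that of MLN8237 against vehicle (horizontal axis), 1 point per gene, for all genes tested (left) and for those called without replicate 2 (right). The called genes stand apart vertically because of how they were chosen and spread around 0 horizontally, with medians of 0.01 and 0.00, and 38 genes of the left panel lie outside the axes.

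The interaction, the change with MLN8237 in chaetocin minus that without it, was called in 0 of 22831 genes by edgeR (0%), with 3108 at an unadjusted p under 0.05. DESeq2 called 15 (0.0657%). Without combination replicate 2 edgeR again called 0 genes, with 3822 at an unadjusted p under 0.05, and DESeq2 759 (3.22%). So by edgeR no single gene's response to MLN8237 was shown to differ between cells with and without chaetocin. The smallest p-values at 5 CPM or more were those of PRDM10 and ZSCAN12P1, both higher, and CTGF and EDN1, both lower. PRDM10, a zinc finger transcription factor, had 13, 12.7 and 11.6 CPM with chaetocin, 20.9, 17.9 and 17.4 with both, and means of 17.3 in vehicle and 14.6 with MLN8237 alone, an interaction of 0.83 ± 0.158 on the log2 scale (edgeR adjusted p = 0.362). EDN1 had an interaction of -0.55 ± 0.119 and CTGF of -0.58 ± 0.126, at the same adjusted p.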

How the data were processed

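RNA sequencing of 12 PANC-1 libraries was analysed from a table that the authors deposited. Per the file headers each library has a column of counts and a column of RPKM. The counts deposited by the authors are whole numbers and were used as they stand. The RPKM values the authors deposited were not used for testing. The submitters' processing notes list HTSeq, hg19, TopHat 12.0.6 and CASAVA 1.9, without roles. Strand use in counting is not stated in those notes or the labels. No per-sample column was left unmapped (0).

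Counts were fitted with edgeR 4.0.16 in R 4.3.3 (robust quasi-likelihood F test, default expression filter by group, TMM scaling, 4 group means over all 12 libraries, Benjamini-Hochberg over all genes tested, calls at an adjusted p under 0.05), and again without combination replicate 2, where 23573 genes passed the filter. DESeq2 1.42.0, limma-voom (limma 3.58.1), RLE scaling, other filters, a replicate block, a fit of the compared groups, an added 2-fold rule and left-out libraries were alternatives. Scripts were tested on simulated data. Log2 fold changes carry the SE of the fit. The range beside an adjusted p spans the alternatives of the fit without combination replicate 2.

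Genes named were the leading ones each way (up to 12 with all libraries, or the 6 smallest p where none passed, 6 without replicate 2, 4 for the interaction, all at 5 CPM or more), up to 4 per list by p, and AURKA, SUV39H1 and similar genes followed throughout. In the G1/S list 1 gene is not reported here by name and stays in the counts. Further called list members were named after their values were seen, to account for counts. The comparison and the 35 gene lists were chosen with earlier results of these data known. Of the 573 genes called without combination replicate 2, 62.1% overlap another gene in the table, beside 69.3% of all genes tested.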

Additional observations from a re-analysis of the deposited data

How the results depend on the processing

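With all libraries, 0 genes were called in 16 of 22 alternatives. The exceptions were no filter (36), DESeq2 (299), limma-voom (1), a fit of only the compared groups with the replicate number as a block (526, chosen after seeing the data) and left-out libraries (0 to 573, the highest without combination replicate 2 and 7 without MLN8237 replicate 3). Of the 299, 36 and 526 genes, 212, 35 and 178 were among the 573 called without combination replicate 2. That count of 573 became 1702 with DESeq2, 1153 with limma-voom, 990 with a replicate block and 174 with an added 2-fold rule, and 0 to 2117 with a further library left out. The interaction count was 2 with no filter and 15 with DESeq2, and 0 with each library left out. The count of 1 for MLN8237 against vehicle became 0 with the stricter filter and without the 4 libraries numbered 3, and was 0 to 1 with a library left out. The replicate block over all 12 libraries gave 0 genes. Deviations from the group mean of same-numbered chaetocin and combination libraries correlated at 0.17, -0.01 and 0.46 over genes, so the numbers did not pair all samples. Combination replicates 1 and 3, but not 2, correlated best with their own number, and replicate 3 most clearly, at 0.46 beside -0.42 and -0.12 with the other chaetocin libraries. Of the named genes that were followed through the alternatives, 4, called in no setting, changed the sign of their log2 fold change when a library was left out. The signs of other genes were not followed. Over all alternatives of the fit of all libraries, SUV39H1 ranged from -0.192 to 0.018 and RB1 from -0.015 to 0.24. Over all alternatives of the fit without combination replicate 2, RB1 ranged from -0.222 to 0.199 (-0.016 with no filter). CCNB1 ranged from -0.055 to 0.202 and HMOX1 from -0.259 to 0.072. The cause of these differences was not tested. With 3 libraries a group, the median SE of a log2 fold change was 0.178, which limits what could pass.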

Other observations

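With all libraries 0 genes were called, and the 573 called without combination replicate 2 fell into these types. Of 15034 protein-coding genes 204 rose and 263 fell (1.36% and 1.75%). Of 4523 long non-coding genes 51 rose and 17 fell (1.13% and 0.376%), and of 2535 pseudogenes 19 rose and 2 fell (0.75% and 0.0789%). The median levels of these classes were 22.8, 0.868 and 0.479 CPM. Of 363 genes of other types 1 rose and 0 fell, and of 1118 genes without a matched type 6 rose and 10 fell. The part of expression level in these counts was not tested. Among 452 zinc finger ZNF genes, 8 rose and 4 fell, near the 1.19% and 1.24% over all genes. The median log2 fold change was 0.05 with all libraries and 0.07 without replicate 2, where 283 were positive. With all libraries 60 of 451 lay above chaetocin in every combination library and 21 below, beside 9.53% and 9.18% of all genes. At an unadjusted p under 0.05, 48 were higher and 11 lower, beside 6.93% and 4.8% of all genes.

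Of 85 cytosolic ribosomal protein genes 0 were called without combination replicate 2, beside 1.19% higher and 1.24% lower of all genes. With all libraries edgeR called 0 of 22831 genes. The median log2 fold change was -0.20 with all libraries and -0.25 without combination replicate 2, where 82 of 85 were negative, beside 11616 of 23573 over all genes. Gene by gene, 29 of the 85 lay below chaetocin in every combination library and 0 above, beside 9.18% and 9.53% of all genes. With MLN8237 alone the list's median was 0.37, and the interaction reached an unadjusted p under 0.05 in 60 of 85 genes, beside 13.6% over all genes. By library the list's median stood at 0.82 in MLN8237 replicate 3 and at 0.11 and 0.18 in the other MLN8237 libraries. It stood at -0.11, -0.02 and 0.13 with chaetocin and at -0.40, -0.12 and -0.08 in the combination. The list medians of chaetocin and combination libraries thus overlapped, and combination replicate 1 lay lowest. Proteasome subunits showed the same order, at 0.58 in MLN8237 replicate 3 and -0.23 in combination replicate 1. The part of those libraries in the interaction was not tested.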
